A study of Mus musculus with 12 samples.

Results

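The genes of the non-collagenous extracellular matrix were followed in the brains of *Snx14*-KO mice. This set held 39 of the 55536 genes counted in the series: matrix glycoproteins, laminins, elastic fibre proteins and proteoglycans, listed by name rather than by a threshold on measured values. The list was drawn up with earlier results of these data known, so its counts below are not those of an unselected set. They were sorted by role into 8 small leucine-rich proteoglycans, 4 hyalectans, 8 elastic fibre proteins and fibulins, 12 adhesive and matricellular glycoproteins and 7 basement membrane genes. *Snx14* encodes a sorting nexin, a membrane-tethering protein whose loss in people causes a childhood cerebellar ataxia, and the study set the cerebellum, the brain region the disease strikes, beside the cerebral cortex. RNA-Seq was made from whole pieces of both tissues at 1 month of age, with 3 WT and 3 *Snx14*-KO mice for each tissue and 12 libraries in all. The KO mice were homozygous for a CRISPR-Cas9 frameshift deletion in *Snx14* on the C57BL/6J background and carried it in every cell of the body, and the WT mice were control littermates. Mice carried the same number in both tissues, so that the cerebellum and cortex numbered 2, for example, are taken as coming from mouse 2 of that genotype.

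The extracellular matrix is the secreted meshwork around cells. Small leucine-rich proteoglycans and fibronectin organize collagen fibrils in connective tissue, which in the brain is found mainly in the meninges, the choroid plexus stroma and around vessels, while elastin is laid down on a scaffold of fibrillin and fibulins. Hyalectans bind hyaluronan and, with tenascin-R, build the perineuronal nets and the diffuse matrix between neurons and glia. Laminins, nidogens and perlecan form the basement membranes on which vessels and the pia rest.

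Gene counts per library ran from 16672589 to 19887427, and values are given below as CPM, counts scaled to the same library total with TMM normalization. *Snx14* itself stood at 63.8, 63.8 and 66.4 CPM in the WT cerebella and at 10.4, 10.9 and 11.2 CPM in the KO cerebella, and it was as clearly separated in the cortex. Mouse 1 of each group expressed *Xist* at 383 to 625 CPM, against at most 5.61 CPM in mice 2 and 3, so each group held 1 female and 2 males by this measure. The sums of 10 cerebellar and of 10 cortical neuron markers were each higher in every library of the labelled tissue than in any of the other. Marker lists of other cell types stood apart in single libraries. The summed CPM of 10 choroid plexus epithelium markers was 84.4, 2778 and 7447 in the cerebella of WT mice 1, 2 and 3 and between 983 and 3244 in the KO cerebella. The summed CPM of 15 meningeal fibroblast markers was 389 in the cortex of KO mouse 2, against 114 to 154 in the other 5 cortices, and that of 10 oligodendrocyte markers was 7484, 5755 and 8192 in the cortices of KO mice 1, 2 and 3, against 8165 to 8535 in the WT cortices. These values are set beside the results they touch, and in such whole-tissue samples fewer cells of a type and less RNA per cell cannot be told apart.

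To compare genes with each other, counts were also divided by exon length and expressed as TPM, a level per transcript length. The group means of the 39 genes in WT cerebellum ran from 0.616 to 3135 TPM. *Sparcl1*, a matricellular protein secreted by astrocytes, was the most abundant in all 4 groups, at 3135 ± 83.2 TPM (SD, n = 3) in WT cerebellum and 2312 ± 27.1 TPM in WT cortex. *Sparc*, its collagen-binding relative, followed in WT cerebellum with 1151 ± 109 TPM but held only 151 ± 28.1 TPM in WT cortex. These 2 genes made up 85.1 to 88.3% of the TPM of the set in the cerebella and 74.0 to 81.6% in the cortices. The only other members above 100 TPM in a group were the hyalectans *Bcan* (brevican, 136 ± 13.1 TPM in WT cerebellum) and *Ncan* (neurocan, 114 ± 6.56 TPM in WT cortex) and, in KO cerebellum, the cell-adhesion glycoprotein *Vtn* (vitronectin, 144 ± 12 TPM). At the other end, *Smoc2* in WT cerebellum and *Tnxb* in WT cortex averaged 0.616 and 0.641 TPM. Of the 38 pairs of neighbours in the order of WT cerebellar TPM, 33 overlapped in their replicate values, so only the coarse order can be read.

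Replicates of the same group did not spread evenly over the roles. In WT cerebellum the highest library exceeded the lowest by a median of 2.5 times among the small leucine-rich proteoglycans but by 1.16 times among the hyalectans. In KO cerebellum the same medians were 1.21 and 1.51 times. Among the WT cerebella *Vcan* (versican) was the steadiest gene, with 39.9, 40.0 and 40.0 CPM, and *Nid2* (nidogen-2) the most variable, with 2.61, 5.79 and 12.3 CPM. *Vcan* spread by 1.43 times among the KO cerebella, whereas *Sparcl1* and *Tnr* stayed at or under 1.16 times in all 4 groups. In KO cortex *Thbs1* (thrombospondin-1) differed by 7.72 times between libraries.

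The first comparison asked which matrix genes differ between *Snx14*-KO and WT cerebellum at 1 month of age. All 39 genes passed the filter on low counts and 36 had a log2 fold change above 0, against 49.9% of the 18201 genes tested. Their median log2 fold change was 0.57, against 0.00 over all genes. In 20 of 39 genes every KO cerebellum was above every WT cerebellum, where 6.36% of all genes were, and in no gene was every KO cerebellum below every WT cerebellum (6.01% of all genes). Those 20 comprised 6 of 8 small leucine-rich proteoglycans, 5 of 8 elastic fibre proteins and fibulins, 8 of 12 adhesive and matricellular glycoproteins, 1 of 7 basement membrane genes and none of the 4 hyalectans. None passed edgeR's quasi-likelihood test after Benjamini-Hochberg adjustment (adjusted p under 0.05 with an absolute log2 fold change over 0.5), which called 0% of all genes higher and 0.00549%, *Snx14* alone, lower. At an unadjusted p under 0.05 the same test gave 20 members higher (5.78% of all genes) and 0 lower (2.37%). DESeq2, the tool of the study, called 14 members higher (0.525% of all genes) and 0 lower (0.035%), and edgeR without the filter on low counts called 16 higher (1.05%). With WT mouse 2 left out edgeR called 3 members, *Dcn*, *Fn1* and *Vtn* (0.0481%), and with KO mouse 2 left out it called *Fmod*, *Ncan* and *Vtn* (1.31%). Without WT mouse 1, whose cerebellum had the lowest choroid plexus and meningeal sums, the median of the set was 0.42, and 19 members were higher at an unadjusted p under 0.05, against 4.9% of all genes.

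**Figure D1:**
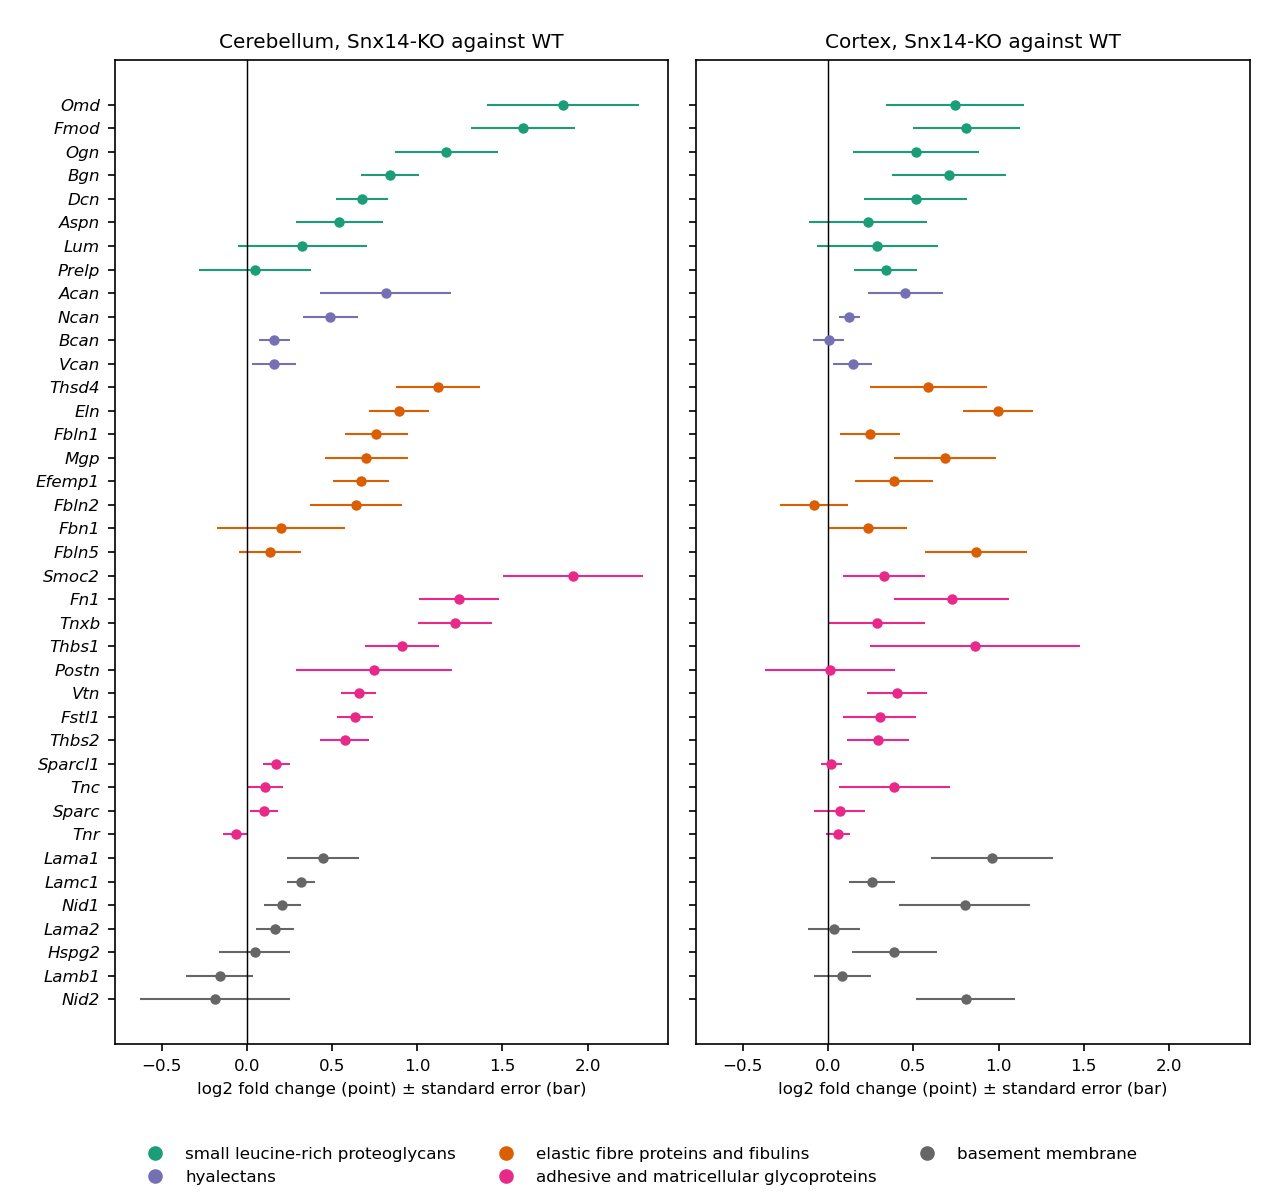
Log2 fold change of *Snx14*-KO against WT for each of the 39 matrix genes in the cerebellum (left) and cortex (right), from edgeR, with the standard error as a bar and colour by role. In the cerebellum 36 of 39 points lie above 0 and the 7 basement membrane genes lie between -0.19 and 0.45, while in the cortex 38 points lie above 0 with a median of 0.34.

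Small leucine-rich proteoglycans had the highest median log2 fold change in the cerebellum, 0.76 over 8 genes, of which 5 had an unadjusted p under 0.05 and 4 were called by DESeq2. *Fmod*, which encodes the collagen-binding fibromodulin, stood at 8.61, 15.8 and 7.5 CPM in WT mice 1, 2 and 3 and at 35.3, 21.1 and 40.5 CPM in KO mice 1, 2 and 3. The groups did not overlap, although KO mouse 2 and WT mouse 2 came close. Its log2 fold change was 1.62 ± 0.30 (SE), with an adjusted p of 0.156 in edgeR and 0.0288 in DESeq2. *Omd* (osteomodulin) was a rare transcript with 0.778, 1.85 and 0.426 CPM in WT and 3.59, 2.92 and 4.38 CPM in KO cerebella. The WT values rested on as few as 8 counts in a library, and no KO value reached down to them. Its log2 fold change was 1.85 ± 0.45, with an adjusted p of 0.250 in edgeR and 0.0122 in DESeq2. *Bgn* (biglycan) went from 10.4, 16.8 and 11.4 CPM in WT to 22.1, 22.4 and 24.2 CPM in KO cerebella. The KO values were close together and all above the highest WT value, that of mouse 2. The log2 fold change was 0.84 ± 0.17, with an adjusted p of 0.185 in edgeR and 0.00128 in DESeq2.

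*Dcn* (decorin), which binds collagen fibrils, had 25.2, 39.5 and 26.2 CPM in WT and 48.8, 46.9 and 48.0 CPM in KO cerebella. Here too WT mouse 2 was the highest of its group and still below every KO library. The log2 fold change was 0.67 ± 0.15, with an adjusted p of 0.218 in edgeR and 0.00341 in DESeq2. *Ogn* (osteoglycin) had 4.72, 13.7 and 9.58 CPM in WT and 20.1, 19.4 and 23.0 CPM in KO cerebella, without overlap, and a log2 fold change of 1.17 ± 0.30 that neither tool called (adjusted p = 0.302 in edgeR and 0.279 in DESeq2). *Aspn* (asporin) also did not overlap, at 1.44 to 2.02 CPM in WT and 2.25 to 2.76 CPM in KO cerebella. *Lum* (lumican) and *Prelp*, a proteoglycan of basement membrane and cartilage, overlapped between the groups, with log2 fold changes of 0.32 ± 0.38 and 0.04 ± 0.33. For *Prelp* 9.68% of the exon bases are shared with a gene on the opposite strand, which the counting did not separate.

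Several of these genes are neighbours. On the GRCm38 build *Aspn* (chromosome 13, 49544443 to 49567565), *Omd* (49582462 to 49592822) and *Ogn* (49608046 to 49624501) lie in a row on the plus strand, *Dcn* (chromosome 10, 97479609 to 97518143) is followed by *Lum* (97565128 to 97572703), and *Prelp* (133910304 to 133921414) and *Fmod* (134037254 to 134048277) lie near each other on opposite strands of chromosome 1. Neighbours did not share 1 size of difference: *Omd* and *Ogn* exceeded *Aspn* in log2 fold change, *Dcn* exceeded *Lum*, and *Fmod* exceeded *Prelp*, with no test made between genes. The windows from 250 bases before to 50 bases after the RefSeq start were available for 28 of the 39 genes (GRCm38.p6). They were searched on both strands for the TATA box (TATAAA), the GC box (GGGCGG), the CCAAT box (CCAAT), an AP-1 site (TGANTCA) and a TEAD site (GGAATG), any of which may overlap another. The windows of the chromosome 13 neighbours, of *Fmod*, of *Vtn*, which has the smallest p in the cerebellum, and of *Ncan*, which has the largest tissue difference, are shown with every match in capitals.
Aspn (chr13:49544193-49544492, plus strand): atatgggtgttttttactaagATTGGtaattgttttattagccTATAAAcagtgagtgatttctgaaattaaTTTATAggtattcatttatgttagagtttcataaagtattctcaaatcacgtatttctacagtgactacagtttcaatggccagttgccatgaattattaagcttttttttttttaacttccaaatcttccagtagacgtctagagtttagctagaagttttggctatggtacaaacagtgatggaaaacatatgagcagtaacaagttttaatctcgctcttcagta
Omd (chr13:49582212-49582511, plus strand): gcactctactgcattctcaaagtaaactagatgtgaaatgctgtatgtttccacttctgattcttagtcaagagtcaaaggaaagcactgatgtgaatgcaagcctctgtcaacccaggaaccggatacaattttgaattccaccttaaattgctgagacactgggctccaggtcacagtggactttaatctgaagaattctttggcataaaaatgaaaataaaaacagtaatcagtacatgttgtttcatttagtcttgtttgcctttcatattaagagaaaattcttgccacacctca
Ogn (chr13:49607765-49608064, plus strand): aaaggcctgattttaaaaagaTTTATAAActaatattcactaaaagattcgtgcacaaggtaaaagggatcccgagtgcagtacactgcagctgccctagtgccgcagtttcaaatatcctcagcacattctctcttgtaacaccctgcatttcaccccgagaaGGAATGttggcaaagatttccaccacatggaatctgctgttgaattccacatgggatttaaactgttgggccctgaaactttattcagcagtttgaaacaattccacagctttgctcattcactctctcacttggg
Fmod (chr1:134037004-134037303, plus strand): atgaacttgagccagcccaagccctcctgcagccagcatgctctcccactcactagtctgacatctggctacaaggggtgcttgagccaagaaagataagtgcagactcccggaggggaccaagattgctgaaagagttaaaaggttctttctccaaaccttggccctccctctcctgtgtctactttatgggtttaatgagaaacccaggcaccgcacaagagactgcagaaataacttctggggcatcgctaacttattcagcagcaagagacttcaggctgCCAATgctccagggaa
Vtn (chr11:78498870-78499169, plus strand): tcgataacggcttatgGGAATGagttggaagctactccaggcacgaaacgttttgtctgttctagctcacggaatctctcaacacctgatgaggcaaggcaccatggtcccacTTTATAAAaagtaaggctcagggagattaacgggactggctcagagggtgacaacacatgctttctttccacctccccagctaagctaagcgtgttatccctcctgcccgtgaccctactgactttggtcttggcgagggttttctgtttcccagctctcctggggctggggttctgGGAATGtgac
Ncan (chr8:70120795-70121094, minus strand): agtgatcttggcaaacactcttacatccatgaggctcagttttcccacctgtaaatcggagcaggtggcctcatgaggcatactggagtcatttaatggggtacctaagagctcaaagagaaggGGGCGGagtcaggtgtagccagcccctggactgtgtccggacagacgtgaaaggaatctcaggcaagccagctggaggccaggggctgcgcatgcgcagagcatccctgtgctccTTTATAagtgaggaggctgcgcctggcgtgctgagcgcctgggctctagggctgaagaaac

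No motif was found in all of these windows. That of *Omd* held no match, *Fmod* held a CCAAT box alone, *Ogn* and *Vtn* each held the TATA box and the TEAD site, *Aspn* held the TATA and CCAAT boxes, and *Ncan* held the TATA and GC boxes. Over the 28 genes the TATA box was found in 7 (25%, against 15.7% of 27025 genes with a window), the GC box in 17 (60.7% against 38.2%), the CCAAT box in 12 (42.9% against 41.1%), the TEAD site in 4 (14.3% against 16.6%) and the AP-1 site in 2, *Efemp1* and *Tnxb* (7.14% against 8.97%). The GC content of the windows had a median of 55%, against 52.7% over all windows. A match is a description of the letters only.

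Elastic fibre genes and fibulins had a median log2 fold change of 0.69 in the cerebellum, with 6 of 8 at an unadjusted p under 0.05 and 4 called by DESeq2. *Eln* encodes elastin, the core of the fibre. It stood at 7.28, 11.1 and 7.93 CPM in WT and at 14.5, 18.1 and 15.8 CPM in KO cerebella. The groups did not overlap and mouse 2 was the highest of both. The log2 fold change was 0.89 ± 0.18, with an adjusted p of 0.178 in edgeR and 0.00208 in DESeq2. *Thsd4*, which encodes a protein that promotes fibrillin assembly, had 5.78, 8.68 and 3.94 CPM in WT and 12.6, 15 and 12 CPM in KO cerebella, again without overlap. Its log2 fold change was 1.12 ± 0.24, with an adjusted p of 0.209 in edgeR and 0.00196 in DESeq2. The fibulins *Fbln1* (9.84, 15.9 and 12.1 CPM in WT, 21.1, 18.3 and 24.1 CPM in KO) and *Efemp1* (9.34, 13.3 and 9.20 CPM in WT, 16.5, 15.2 and 18.5 CPM in KO) were both separated between the groups and called by DESeq2. Their log2 fold changes were 0.76 ± 0.18 and 0.67 ± 0.16, with adjusted p-values of 0.250 and 0.260 in edgeR.

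The remaining elastic fibre genes were less separated. *Fbln2* had 1.67 to 3.18 CPM in WT and 3.19 to 4.25 CPM in KO cerebella, so that the groups only just parted, and a log2 fold change of 0.64 ± 0.27. *Mgp* (matrix Gla protein, an inhibitor of calcification) had an unadjusted p under 0.05 but overlapped, with 18.5, 31.1 and 14.1 CPM in WT and 29.7, 39 and 33.8 CPM in KO cerebella and a log2 fold change of 0.70 ± 0.24. *Fbln5*, a fibulin that tethers elastin to cells, and *Fbn1* (fibrillin-1) had log2 fold changes of 0.14 ± 0.18 and 0.20 ± 0.37. In *Fbn1* the WT cerebella read 3.22, 7.87 and 12.3 CPM and enclosed the KO values of 8.71 to 9.20 CPM, and 20.1% of its exon bases are shared with a gene on the opposite strand.

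Among the 12 adhesive and matricellular glycoproteins the median log2 fold change was 0.65, 7 had an unadjusted p under 0.05 and 6 were called by DESeq2. *Fn1* encodes fibronectin, the main cell-binding protein of the interstitial matrix. Its WT cerebella read 30.1, 48.4 and 23.4 CPM and its KO cerebella 67.3, 96.0 and 75.5 CPM. The groups were apart, and mouse 2 was the highest in each. The log2 fold change was 1.24 ± 0.23, with an adjusted p of 0.156 in edgeR and 0.0469 in DESeq2. *Vtn* had the smallest p of the set, with 51.0, 65.4 and 50.9 CPM in WT and 91.4, 81.4 and 88.4 CPM in KO cerebella. Its log2 fold change was modest, 0.66 ± 0.10, and the adjusted p was 0.133 in edgeR and 1.33e-05 in DESeq2. *Fstl1*, which encodes a secreted follistatin-like glycoprotein, was similar in size, with 26.8, 29.7 and 22.3 CPM in WT and 38.5, 41.4 and 41.6 CPM in KO cerebella. Its log2 fold change was 0.64 ± 0.10, with an adjusted p of 0.134 in edgeR and 0.000493 in DESeq2.

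*Smoc2*, which encodes a calcium-binding matricellular protein, had the largest log2 fold change, 1.92 ± 0.41. Its WT cerebella read 1.44, 0.984 and 1.44 CPM and its KO cerebella 3.30, 8.16 and 3.14 CPM. All 3 KO values exceeded the WT values, KO mouse 2 by the most (the log2 fold change was 1.32 without it), and the adjusted p was 0.204 in edgeR and 0.00188 in DESeq2. *Tnxb*, which encodes the connective tissue tenascin-X, read 3.72, 3.70 and 2.77 CPM in WT and 5.98, 9.54 and 8.06 CPM in KO cerebella. The groups were apart and the log2 fold change was 1.22 ± 0.22, with an adjusted p of 0.145 in edgeR and 0.00196 in DESeq2. *Thbs1* read 8.61, 7.18 and 5.64 CPM in WT and 9.56, 14.7 and 15.6 CPM in KO cerebella. KO mouse 1 lay just above WT mouse 1, and the log2 fold change was 0.91 ± 0.22, with an adjusted p of 0.248 in edgeR and 0.0152 in DESeq2. *Thbs2* was apart as well, at 8.22 to 10 CPM in WT and 12.2 to 15.4 CPM in KO cerebella, with a log2 fold change of 0.57 ± 0.14 that neither tool called. *Postn* (periostin) overlapped, with a log2 fold change of 0.75 ± 0.46, which was 0.32 without WT mouse 1 and 1.02 without WT mouse 3.

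**Figure D2:**
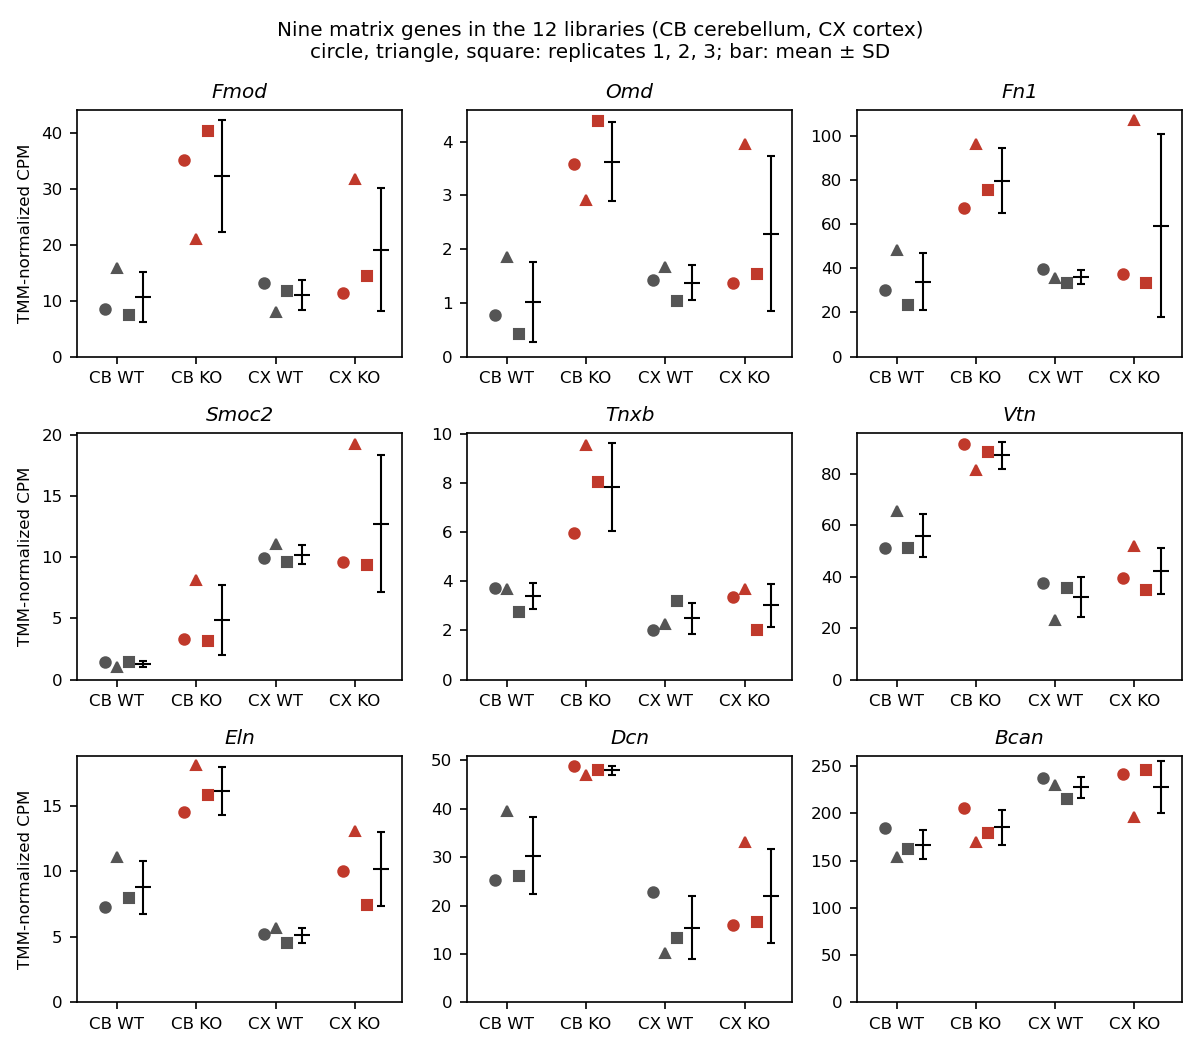
CPM of 9 matrix genes in each of the 12 libraries, with WT in grey, *Snx14*-KO in red, a symbol for each replicate number and the mean ± SD as a bar. *Fmod*, *Omd*, *Fn1*, *Smoc2*, *Tnxb*, *Vtn*, *Eln* and *Dcn* are apart in the cerebellum (CB), *Eln* alone of them is apart in the cortex (CX), and *Bcan* overlaps in both.

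The hyalectans and the glycoprotein genes *Sparcl1*, *Sparc*, *Tnr* and *Tnc* had log2 fold changes from -0.07 to 0.81 in the cerebellum. *Sparcl1* was higher in every KO than in every WT cerebellum, but by a log2 fold change of 0.17 ± 0.08, and *Sparc* had 0.10 ± 0.08. *Tnr*, the tenascin of perineuronal nets, had a log2 fold change of -0.07 ± 0.08, and *Tnc*, the tenascin of astrocytes and Bergmann glia, had 0.11 ± 0.10. The hyalectans *Bcan* and *Vcan* each had 0.16, with standard errors of 0.09 and 0.13. *Ncan* read 22.8, 22.6 and 25.4 CPM in WT and 36.9, 23.9 and 37.8 CPM in KO cerebella. KO mouse 2 lay at the WT level while mice 1 and 3 lay above it, and the log2 fold change was 0.49 ± 0.16, with an adjusted p of 0.430 in edgeR. *Acan* (aggrecan) also had KO mouse 2 at the WT level and KO mice 1 and 3 above it, with 2.22, 1.62 and 2.34 CPM in WT and 5.02, 1.65 and 4.11 CPM in KO cerebella, and a log2 fold change of 0.81 ± 0.38. KO mouse 2 thus stood lowest of the KO cerebella in these hyalectans and in *Fmod* and *Omd*, and highest in *Smoc2*, *Fn1*, *Tnxb* and *Eln*.

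Basement membrane genes had the lowest median log2 fold change of the 5 roles in the cerebellum, 0.17 over 7 genes. Only *Lamc1* (laminin gamma-1, the chain common to most laminins) was apart, with 39.2, 40.8 and 34.7 CPM in WT and 45.9, 50.0 and 45.8 CPM in KO cerebella and a log2 fold change of 0.32 ± 0.08, which neither tool called. The other laminin chains *Lama1*, *Lama2* and *Lamb1* had 0.45 ± 0.21, 0.17 ± 0.11 and -0.16 ± 0.20, and *Nid1* and *Hspg2* (perlecan) had 0.21 ± 0.11 and 0.04 ± 0.21. In *Lamb1*, *Nid2* and *Hspg2*, and in *Prelp*, *Fbn1*, *Aspn*, *Fbln5* and *Thbs2*, the WT cerebella were lowest in mouse 1 and highest in mouse 3, as the choroid plexus sum was. That order was shared by 8 of 39 members and by 16.0% of all genes, so the count is near the background. The sizes were not alike: *Nid2* went from 2.61 to 12.3 CPM and *Lamb1* from 49.1 to 85.8 CPM between WT mice 1 and 3, while *Aspn* and *Thbs2* stayed below every KO cerebellum. Without WT mouse 3 the log2 fold change of *Nid2* was 0.54, and without WT mouse 1 it was -0.58. Of the exon bases of *Nid2* 8.45% are shared with a gene on the opposite strand.

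**Figure D3:**
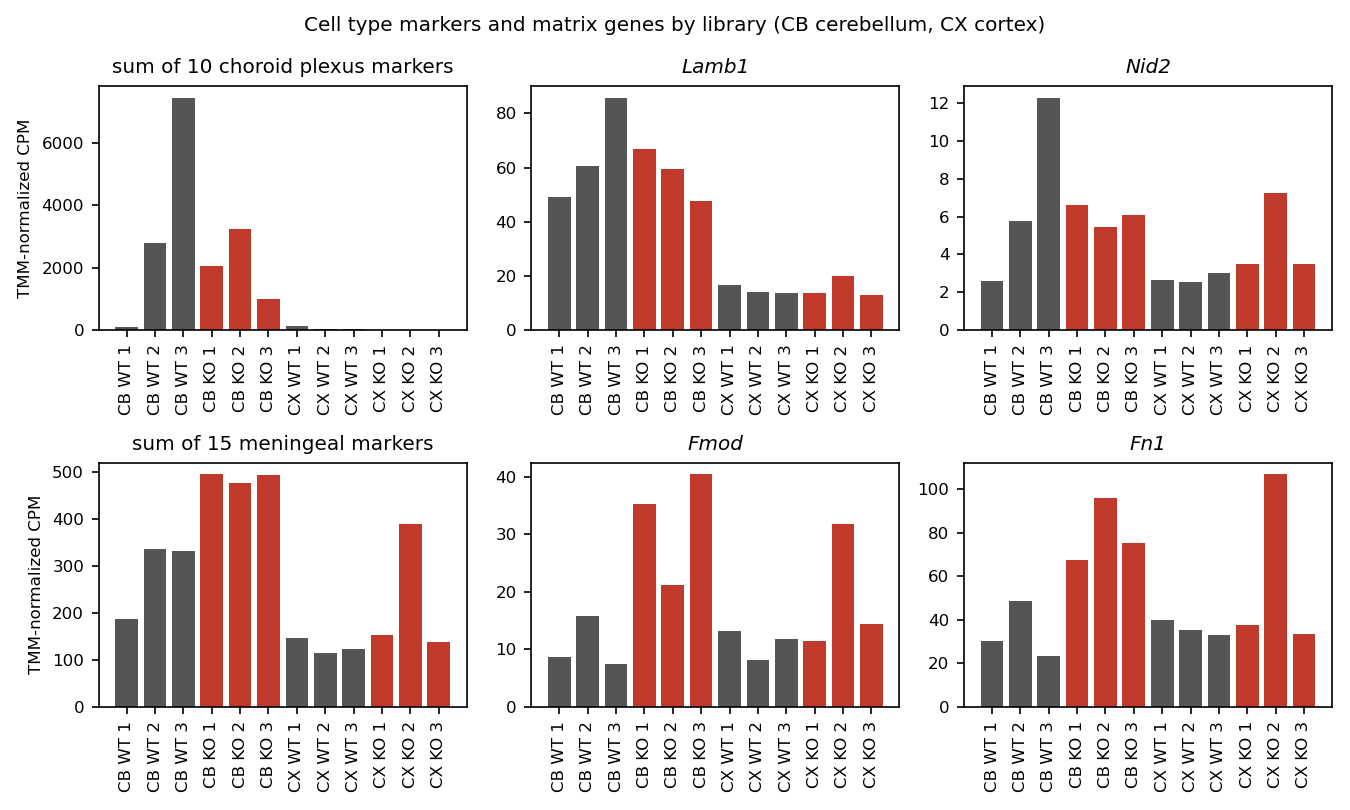
Summed CPM of 10 choroid plexus epithelium and 15 meningeal fibroblast markers (left column) beside the CPM of *Lamb1*, *Nid2*, *Fmod* and *Fn1* in the 12 libraries, WT in grey and *Snx14*-KO in red. The choroid plexus sum is highest in the cerebellum of WT mouse 3, as are *Lamb1* and *Nid2*, and the meningeal sum, *Fmod* and *Fn1* are higher in the KO cerebella and in the cortex of KO mouse 2.

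Marker lists of the cells that make these proteins were read in the same cerebella. They too were chosen with earlier results of these data known, so their counts are not those of unselected genes. Of all genes 6.36% were apart and higher, 6.01% apart and lower, and 0.525% called higher by DESeq2. The 15 meningeal fibroblast markers, none of which is in the set, all had a log2 fold change above 0, 14 were apart and 12 were called by DESeq2, with a summed level of 187 to 337 CPM in WT and 478 to 496 CPM in KO cerebella and no marker at 0 in a whole group. Microglia and macrophage markers summed to 216 to 276 CPM in WT cerebella and to 265, 286 and 649 CPM in KO mice 1, 2 and 3, so mouse 3 stood far above the others. All 12 had a log2 fold change above 0, with a median of 0.96. Of these 8 were higher at an unadjusted p under 0.05 in edgeR (5.78% of all genes), 2 were apart and 1 was called by DESeq2. Astrocyte markers summed to 5730 to 6513 CPM in WT and 6517 to 7622 CPM in KO cerebella, with 5 of 10 apart. Mural cell markers summed to 123 to 153 CPM in WT and 154 to 170 CPM in KO cerebella, sums that did not overlap, with 1 of 10 apart. Endothelial markers had sums that overlapped, with 2 of 8 apart and higher and 1 lower, and the choroid plexus, oligodendrocyte and red blood cell lists had no marker apart. Sums of bone and muscle markers were at most 9.93 CPM in any cerebellum. The part of these cell types in the differences of the matrix genes was not tested.

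In the cortex the same genes were compared between *Snx14*-KO and WT, and the pattern rested on 1 mouse. Of the 39 genes, 38 had a log2 fold change above 0 (50.0% of 18255 genes tested) with a median of 0.34. None passed edgeR's quasi-likelihood test after Benjamini-Hochberg adjustment (0% of all genes called higher and 0.00548% lower), 7 were higher at an unadjusted p under 0.05 (2.24%) and 0 lower (2.26%), and DESeq2 called 1 higher (0.00951%) and 0 lower (0.0158%), with no adjusted p for 11 of the 39 genes. Without the filter on low counts edgeR called 10 higher (0.269%). In 5 genes every KO cortex was above every WT cortex (4.29% of all genes), or in 3 with scaling by total counts, and in 0 every KO cortex was below (5.02%). The cortex of KO mouse 2 exceeded all WT cortices in 34 of 39 genes, against 30.1% of all genes, whereas KO mice 1 and 3 did so in 14 and 11, against 25.1% and 24.1%. KO mouse 2 was the highest of the 6 cortices in 32 of 39 genes, against 23.6% of all genes. Without it 24 of 39 genes had a log2 fold change above 0, the median was 0.07 and 1 gene was higher at an unadjusted p under 0.05 (1.77%). The meningeal and oligodendrocyte sums of this library are given above. In the cortex 10 of the 15 meningeal markers were higher and 8 of the 10 oligodendrocyte markers lower at an unadjusted p under 0.05, and their part in the difference was not tested.

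**Figure D4:**
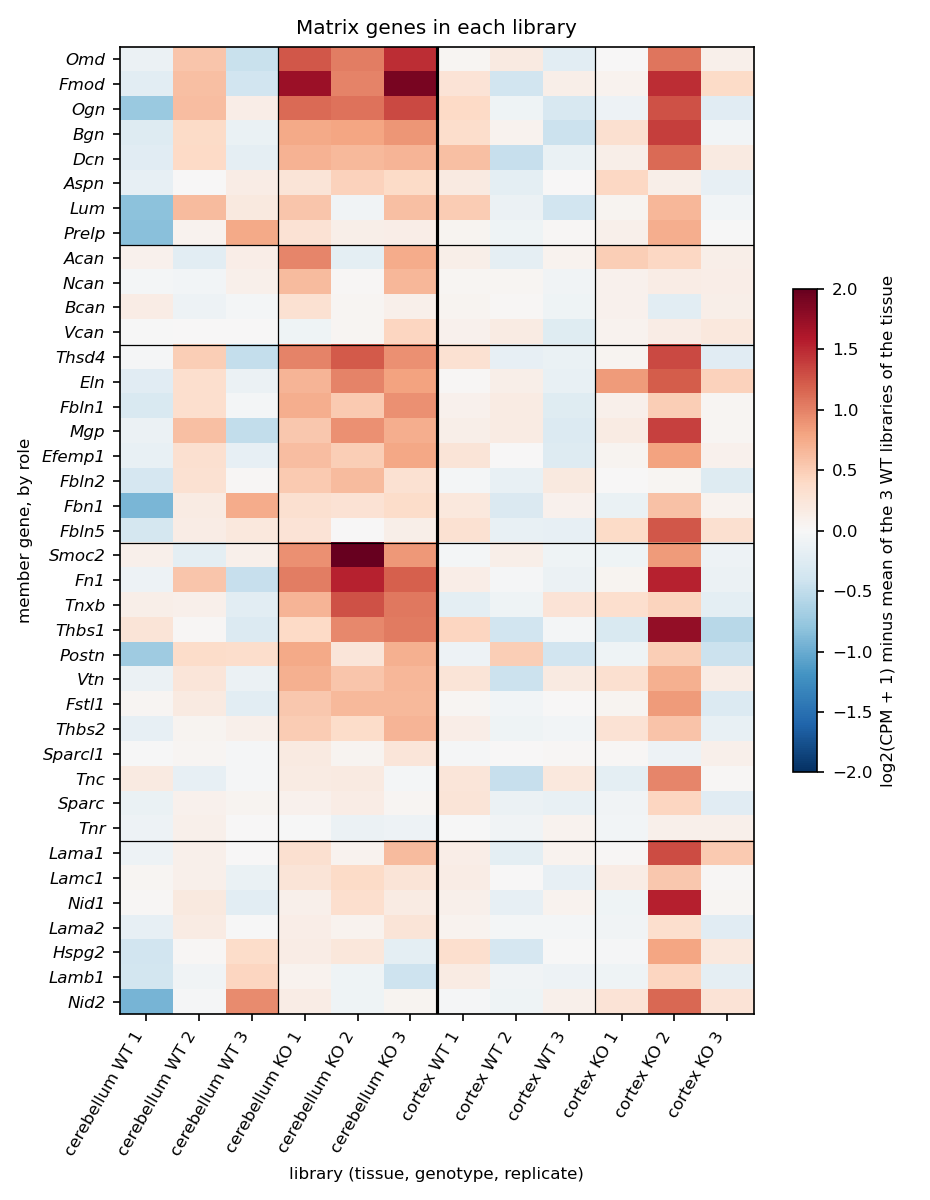
Log2(CPM + 1) of each matrix gene in each library minus the mean of the 3 WT libraries of the same tissue, with genes grouped by role. The KO cerebella are above the WT mean in most small leucine-rich proteoglycans, elastic fibre genes and adhesive glycoproteins, and in the cortex KO mouse 2 is high across all roles but the hyalectans.

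Within this pattern the genes followed KO mouse 2 to different degrees. *Fn1* read 39.7, 35.4 and 33.1 CPM in the WT cortices and 37.5, 107 and 33.2 CPM in the KO cortices. *Nid1* read 6.80, 5.48 and 6.61 CPM in WT and 5.85, 20.3 and 6.47 CPM in KO cortices, and *Thbs1* read 3.77, 1.72 and 2.45 CPM in WT and 1.87, 11 and 1.42 CPM in KO cortices. In each of these KO mice 1 and 3 were within or below the WT range and mouse 2 was several times higher. Their log2 fold changes, 0.72 ± 0.34, 0.80 ± 0.38 and 0.86 ± 0.61, turned to -0.027, -0.025 and -0.68 without KO mouse 2.

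*Eln* was the exception. It stood at 5.21, 5.64 and 4.50 CPM in the WT cortices and at 10, 13.1 and 7.41 CPM in the KO cortices, so all 3 KO mice were above all WT mice. It was the only one of the 39 genes that was higher without overlap in both tissues. The log2 fold change was 1.00 ± 0.21, with an adjusted p of 0.682 in edgeR and 0.0169 in DESeq2, and it was 0.77 without KO mouse 2. The other genes apart in the cortex were *Fbln5*, *Nid2*, *Acan* and *Ncan*. *Fbln5* read 4.09, 2.69 and 2.68 CPM in WT and 4.36, 8.69 and 4.15 CPM in KO cortices, and KO mice 1 and 3 were only just above the WT values. Its log2 fold change was 0.87 ± 0.30, and that of *Nid2* (2.66, 2.53 and 3.02 CPM in WT, 3.49, 7.26 and 3.50 CPM in KO cortices) was 0.81 ± 0.29, both with an adjusted p of 0.996 in edgeR. Without KO mouse 2 the values were 0.43 and 0.36. *Ncan* differed by a log2 fold change of 0.12 ± 0.06.

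The 4 other genes with an unadjusted p under 0.05 in the cortex overlapped. *Fmod* read 13.2, 8.06 and 11.8 CPM in WT and 11.4, 31.8 and 14.4 CPM in KO cortices, with a log2 fold change of 0.81 ± 0.32. *Lama1* read 2.44, 1.72 and 2.28 CPM in WT and 2.18, 6.76 and 3.50 CPM in KO cortices, with 0.96 ± 0.36. Both were led by KO mouse 2. *Mgp* read 15.4, 15.8 and 11.4 CPM in WT and 15.9, 38 and 14.4 CPM in KO cortices, with a log2 fold change of 0.69 ± 0.30. *Vtn* read 37.4, 23.0 and 35.4 CPM in WT and 39.3, 52.0 and 34.9 CPM in KO cortices, with 0.40 ± 0.18. All 4 had an adjusted p of 0.996 in edgeR. Without KO mouse 2 the log2 fold changes of *Fmod*, *Lama1*, *Mgp* and *Vtn* were 0.24, 0.41, 0.09 and 0.22.

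Whether the difference between KO and WT was larger in one tissue than in the other was tested by the interaction of tissue and genotype over the 12 libraries, in a fit that did not use the mouse both tissues share. None of the 39 genes passed in edgeR (0% of 19380 genes called higher), 3 were larger in the cerebellum at an unadjusted p under 0.05 (3.97% of all genes) and 0 in the cortex (1.71%), and DESeq2 called 0 (0.0987% of all genes in one direction and 0.0029% in the other). Without the filter edgeR called 3 members larger in the cerebellum (1.08%) and 1 smaller (0.131%). *Smoc2* had the smallest p, with an interaction of 1.57 ± 0.52 on the log2 scale and an adjusted p of 0.590 in edgeR. With the mouse as a block 0 members passed as well, and *Smoc2* had 1.53 (adjusted p = 0.280 in edgeR). *Tnxb* followed with 0.92 ± 0.37 (adjusted p = 0.785) and *Fbln2* with 0.71 ± 0.33 (adjusted p = 0.879). *Tnxb* overlapped between genotypes in the cortex, at 2.02 to 3.19 CPM in WT and 2.02 to 3.68 CPM in KO. On the other side 5 of the 7 basement membrane genes had an interaction below 0, with a median of -0.35 over the 7. Without the cortex of KO mouse 2, *Nid1*, *Lama1*, *Lamc1* and *Lama2* had 0.21, 0.02, 0.21 and 0.30, and *Hspg2* had -0.05. The sign of that median thus rested on this library. *Nid2* had the lowest of the set, -1.0 ± 0.60, and *Fbln5* had -0.74 ± 0.38, and neither passed. Both moved with single libraries. *Nid2* had -0.27 without the cerebellum of WT mouse 3 and -1.39 without that of WT mouse 1. *Fbln5* had -0.31 without the cortex of KO mouse 2 and -0.97 without that of WT mouse 1. Without the cerebellum of KO mouse 2 alone *Ncan* passed, with 0.53 (1.27% of all genes higher), while *Smoc2* had 0.99 and did not pass. Without the cortex of KO mouse 2 alone 13 genes were larger in the cerebellum at an unadjusted p under 0.05 (4.3%), and *Smoc2* had 2.00, again without passing. Leaving out both libraries of KO mouse 2 was an alternative chosen after seeing the data. It removed the cerebellum that lay at the WT level in *Ncan* and the cortex that was highest in most members. Its p-values are therefore not those of a planned test. In that fit 13 genes were larger in the cerebellum at an unadjusted p under 0.05 (6.14%). In edgeR 2 passed (1.23%), *Smoc2* with 1.41 (adjusted p = 0.0202) and *Ncan* with 0.54 (adjusted p = 0.0207).

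The WT libraries were compared between the tissue pieces without the mutation. These pieces also differed in marker sums. Choroid plexus markers summed to 84.4 to 7447 CPM in WT cerebellum and 18.4 to 144 CPM in WT cortex, and meningeal markers to 187 to 337 and 114 to 145 CPM. In edgeR 10 of 10 choroid plexus and 6 of 15 meningeal markers were called higher in the cerebellum (19% of all genes). Their part in the tissue differences of the matrix genes was not tested. Between WT cerebellum and WT cortex 18 members were higher in the cerebellum in edgeR (19% of 18543 genes) and 4 were lower (21.4%), while 17 did not pass. The largest differences towards the cerebellum were in *Tnc*, with 17.3 ± 2.19 TPM in cerebellum and 2.18 ± 0.68 TPM in cortex (log2 fold change 2.93 ± 0.19, adjusted p = 3.67e-07 in edgeR), *Sparc* (2.87 ± 0.12, adjusted p = 8.67e-09) and *Nid1* (20.1 ± 2.21 against 2.86 ± 0.37 TPM, 2.75 ± 0.13, adjusted p = 3.34e-08). All 7 basement membrane genes had a log2 fold change above 0 (51.6% of all genes), with a median of 1.22, and 6 passed. In *Lamb1*, *Hspg2*, *Nid2*, *Prelp* and *Fbln5* this difference is made with WT cerebella that were ordered as their choroid plexus sums, an order that 16.0% of all genes shared. *Lum*, *Dcn*, *Prelp* and *Bgn* were the small leucine-rich proteoglycans that passed, with log2 fold changes of 1.37 ± 0.43, 0.98 ± 0.26, 1.08 ± 0.32 and 0.61 ± 0.24, and of the hyalectans *Vcan* was higher by 0.60 ± 0.11 (adjusted p = 0.000651 in edgeR). Several of these calls hung on single libraries. *Nid2* passed in 2 of the 6 fits with 1 library left out and had 0.62 without the cerebellum of WT mouse 3, *Lum* and *Bgn* passed in 3 of 6 and had 0.97 and 0.38 without the cerebellum of WT mouse 2, *Prelp* passed in 4 of 6 and had 0.59 without the cerebellum of WT mouse 3, and *Vcan* passed in 5 of 6 and had 0.47 without the cortex of WT mouse 3.

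In the opposite direction *Ncan* was the extreme, with 10.9 ± 1.14 TPM in WT cerebellum and 114 ± 6.56 TPM in WT cortex, a log2 fold change of -3.45 ± 0.08 and an adjusted p of 2.00e-10 in edgeR. *Smoc2* was lower in the cerebellum too, with 0.616 ± 0.14 against 4.63 ± 0.35 TPM (-2.97 ± 0.20, adjusted p = 4.30e-07), followed by *Fbln2* (-0.82 ± 0.26, adjusted p = 0.0185) and *Fstl1* (-0.52 ± 0.10, adjusted p = 0.00122). *Fbln2* did not pass without the cerebellum of WT mouse 1 (-0.61) or the cortex of WT mouse 3 (-0.70), nor *Fstl1* without the cerebellum of WT mouse 3 (-0.42). *Bcan*, the other abundant hyalectan, differed by -0.44 ± 0.08, under the fold threshold. *Sparcl1* differed by 0.38 ± 0.06, also under it. *Fmod*, *Fn1* and *Ogn*, which were high in the KO cerebella, did not pass between the WT tissues, with log2 fold changes of -0.05 ± 0.27, -0.09 ± 0.21 and 0.22 ± 0.33.

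The same contrast in the KO libraries, which the WT contrast did not use, called 17 genes higher in the cerebellum (18.2% of 18542 genes) and 2 lower (19.6%). Of the 22 genes called in WT, 16 were called in the same direction in KO and all 22 had the same sign. *Efemp1*, *Tnxb* and *Sparcl1* were called in KO alone, with log2 fold changes of 0.73 ± 0.21, 1.38 ± 0.26 and 0.52 ± 0.08 against 0.46 ± 0.19, 0.46 ± 0.24 and 0.38 ± 0.06 in WT. *Efemp1*, *Sparcl1* and *Smoc2* each passed in 4 of the 6 KO fits with 1 library left out. *Smoc2* differed by -1.39 ± 0.39 in KO, nearer to 0 than in WT, and its interaction is given above. Without the cortex of KO mouse 2, 28 of the 39 genes were called higher in the cerebellum (18.4% of all genes). With the mouse as a block, *Mgp* also passed between the WT tissues (log2 fold change 0.53, adjusted p = 0.0156 in edgeR), and *Thbs1* (1.86, adjusted p = 0.0177), *Mgp* (0.70), *Ogn* (1.02) and *Bgn* (0.86) also passed between the KO tissues. In these blocked fits 18.9% of all genes were called higher and 21.3% lower in WT, and 17.8% and 19.2% in KO.

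**Figure D5:**
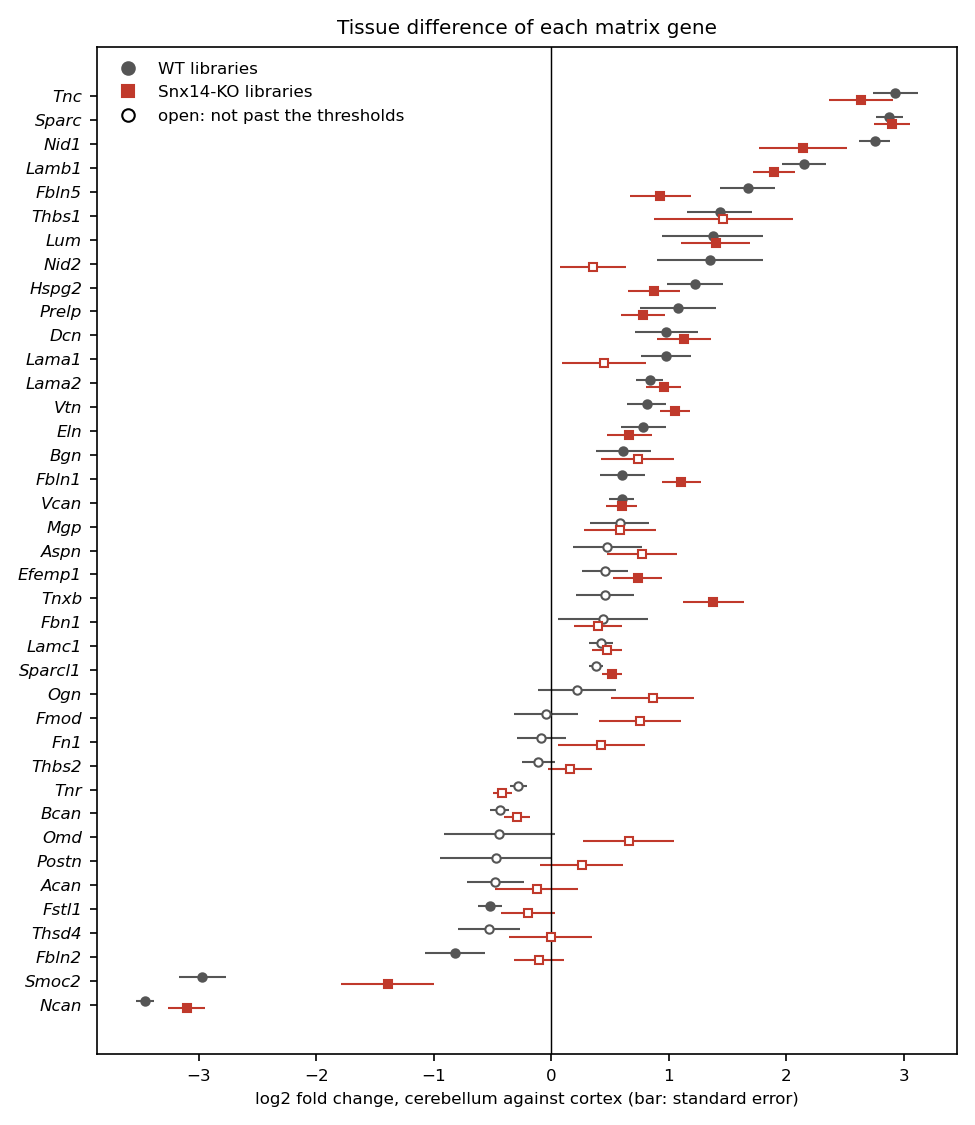
Log2 fold change of cerebellum against cortex for each of the 39 genes, with standard errors, in WT (grey circles) and *Snx14*-KO libraries (red squares), filled where edgeR's thresholds were passed. *Tnc*, *Sparc*, *Nid1* and *Lamb1* lead and *Ncan* and *Smoc2* close the order in both genotypes, and *Smoc2* is nearer to 0 in the KO libraries.

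The genes that assemble, cut or bind this matrix were read from lists of partner genes. In the cerebellum no partner gene passed in edgeR, and DESeq2 called *Ltbp4* (adjusted p = 0.0176) and *Ddr2* (adjusted p = 0.0260) higher. The counts that follow are at an unadjusted p under 0.05, which 5.78% of all genes reached as higher and 2.37% as lower. Of 14 elastic fibre assembly genes tested, 3 were higher and 1 lower. *Ltbp4*, which binds latent TGF-beta and fibulins, read 19.9, 21.4 and 16.9 CPM in WT and 27.8, 28.7 and 26.8 CPM in KO cerebella, with a log2 fold change of 0.53 ± 0.10 (adjusted p = 0.178 in edgeR). *Emilin1* and *Mfap5*, which coat elastin and microfibrils, had 0.93 ± 0.27 and 0.99 ± 0.40. Other laminin and basement membrane genes were higher in 4 of 8. *Lamb2* had the smallest p of them, with 31.3, 30.9 and 31.7 CPM in WT and 46.2, 40.0 and 40.1 CPM in KO cerebella. Its log2 fold change was 0.44 ± 0.08, under the fold threshold, with an adjusted p of 0.145 in edgeR and 0.0206 in DESeq2. The largest log2 fold changes were those of *Lama4*, the alpha chain of vessels (0.79 ± 0.18), and *Lamc3* (0.76 ± 0.25). Proteases and their inhibitors were higher in 3 of 14, among them the inhibitors *Timp2* (0.69 ± 0.23) and *Timp1* (1.30 ± 0.48), and matrix receptors in 3 of 18, among them the collagen receptor *Ddr2* (0.62 ± 0.13). Of 5 hyaluronan synthases and link proteins 1 was higher. In the cortex 2 partner genes were higher at an unadjusted p under 0.05 (2.24% of all genes), *Ddr2* with 0.65 ± 0.19 (adjusted p = 0.990 in edgeR) and *Lama5* with 0.41 ± 0.18, and 1 was lower (2.26%), *Adamts4* with -0.36 ± 0.12.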

How the data were processed

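Total RNA from frozen tissue was sequenced in 12 libraries, 3 per tissue and genotype. The authors aligned reads to GRCm38 with STAR, and the deposited counts are whole read pairs per gene from featureCounts (Subread 2.0.1 per the submitters' processing notes), with strand ignored and reads of several sites left out. Genes that share exon bases on opposite strands were therefore not separated in those bases. All 55536 gene IDs matched GENCODE M21. Numbered features that name no gene took 0.0506 to 0.0632% of the counts and were left out. No replicates were identical.

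From the counts, edgeR 4.0.16 (R 4.3.3) was run with TMM factors, its filter on low counts, the quasi-likelihood test and Benjamini-Hochberg adjustment over all genes tested, and calls needed both an adjusted p below 0.05 and a log2 fold change beyond 0.5 in size. DESeq2 1.42.0, other size factors, no filter, left-out libraries, a replicate block and a fit of all 12 libraries were alternatives. The script was tested on simulated data. Same-numbered libraries of both tissues carry the same mouse number in the labels, and their deviations from the group means correlated by 0.077 to 0.114 in WT and 0.025 to 0.295 in KO mice. Different numbers gave -0.103 to -0.00312 in WT and -0.221 to 0.138 in KO mice, and mouse 1 is the female of each group, so the labels and not these values are the ground on which the tissue contrasts were also fitted with the mouse as a block. CPM uses TMM factors over the 12 libraries, and groups that do not overlap were read from it. TPM divides by union exon length. Named genes were those with the smallest p in each tissue, those called by DESeq2 or with a library left out, and the largest tissue differences. The members, the marker lists and the partner lists were chosen with earlier results of these data known. Replicates were separately numbered mice, and p-values set a difference between groups against the spread of the libraries within them. The main fits of the tissue contrasts and of the interaction treated the cerebellum and cortex of a mouse as separate samples. Totals of 16672589 to 19887427 counts leave rare genes such as *Omd* with as few as 8 counts in a library, and counting error alone is then large.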

Additional observations from a re-analysis of the deposited data

How the results depend on the processing

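The count of members called higher in the KO cerebellum depended on the tool: 0 in edgeR, 14 in DESeq2, 16 without the filter on low counts, 0 in the fit of all 12 libraries (which called 43 of all genes higher, against 0) and 0 to 3 with 1 library left out (*Dcn*, *Fn1* and *Vtn* without WT mouse 2, *Fmod*, *Ncan* and *Vtn* without KO mouse 2). In the cortex it was 0 in edgeR, 1 in DESeq2, 10 without the filter and 0 with any library left out. The tissue difference had 0 called, 3 higher and 1 lower without the filter, 0 to 1 higher with 1 library left out, and 2 higher without both libraries of KO mouse 2, an alternative chosen after seeing the data. The cause of the gap between tools was not tested. Between WT tissues 12 to 20 genes were called higher and 3 to 6 lower with 1 library left out (17.6 to 19% and 20.5 to 21.3% of all genes), and between KO tissues 14 to 28 and 1 to 2 (16.7 to 18.4% and 18.2 to 19.3%). With the replicate number as a block, 0 members were called in either tissue. WT and KO mice of 1 number are different animals, but number 1 is the female of each group by *Xist*, so the block also carries sex. It changed no call between genotypes, but it turned *Nid2* in the cerebellum from -0.19 to 0.035. Between tissues, where the number marks a mouse, the block gave 19 higher and 4 lower in WT (18.9% and 21.3% of all genes) and 21 and 2 in KO (17.8% and 19.2%). With 1 library left out, log2 fold changes crossed 0 in the cerebellum for *Nid2* (-0.58 to 0.54), *Prelp* (-0.29 to 0.53), *Fbn1* (-0.18 to 0.71), *Hspg2* (-0.14 to 0.27), *Lamb1* (-0.34 to 0.10), *Lum* (-0.036 to 0.72) and *Vcan* (-0.023 to 0.26), in the cortex for *Fn1* (-0.027 to 1.01), *Thbs1* (-0.68 to 1.29), *Nid1* (-0.025 to 1.09) and *Ogn* (-0.21 to 0.79), and between KO tissues for *Fbln2* (-0.20 to 0.0060), *Thsd4* (-0.29 to 0.67), *Acan* (-0.45 to 0.22), *Fstl1* (-0.41 to 0.19) and *Thbs2* (-0.015 to 0.35). Counting all members, 8 changed sign in this way in the cerebellum, 18 in the cortex, 16 in the tissue difference, 4 between WT tissues and 5 between KO tissues. With 3 mice per group, both the spread between mice and, in the rarest genes, low counts limit the precision, and their shares were not measured.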
